A study of Rattus norvegicus with 84 samples.

Results

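Fatty acid oxidation was described through 33 genes of the 17502 loci in the deposited tables, in kidney, liver and gastrocnemius muscle of rats. A list of 35 symbols was matched to the gene symbols of the tables, and a repeated symbol took the row with the highest mean over all 84 libraries. The other 2 symbols, Acaa1a and Cd36, occurred only in loci joined with a second gene, so those loci are given as descriptions and are not counted. By the location of the protein, 18 genes were mitochondrial, 7 were peroxisomal, 4 were held as present in both or uncertain, and 4 served fatty acid uptake, handling in the cytosol or regulation.

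Long fatty acids are joined to coenzyme A, passed into mitochondria as carnitine esters, and shortened there by a repeating cycle of dehydrogenation, hydration, dehydrogenation and thiolysis. Electrons from the first step of the cycle reach the respiratory chain through electron transfer flavoprotein. Peroxisomes start the oxidation of very long and branched chains and pass the shortened products on. The nuclear receptor PPARα binds fatty acids and raises transcription of many of these genes in liver and kidney, and in the kidney the proximal tubule relies on this oxidation for energy.

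All animals were male Sprague Dawley rats, an outbred strain, and the labels name no transgene or deletion. The 6M_Vehicle group (10 libraries per tissue) received vehicle by mouth from 4.5 months of age for 6 weeks and was read out at 6 months, and the 24M_Vehicle group (10 libraries per tissue) received it from 22.5 months and was read out at 24 months. The 24M_RAD001 group (8 libraries per tissue) was treated over the same ages as 24M_Vehicle with RAD001, the mTOR inhibitor everolimus, once a week for 7 doses, with vehicle on the other days. No young animals received RAD001, so its effect at 6 months was not measured. The labels do not say which libraries came from the same rat, so p-values measure the spread between libraries.

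RNA was total RNA from snap-frozen tissue, and a level here is the deposited coverage per base of a locus, scaled within each tissue to remove overall differences between libraries. Relative depth spanned 0.826 to 1.41 across the 84 libraries, and no 2 libraries held the same values. The tissue labels fitted their markers: 20 of 20 proximal tubule markers passed the filter on low values in kidney, 12 of 12 hepatocyte markers in liver, and all 10 slow and 11 fast fibre markers in muscle. In bulk tissue, fewer cells of a type and less RNA per cell cannot be told apart. The level of 7SL, the RNA of the signal recognition particle, had a deposited median of 25570 in young, 25004 in aged and 34066 in RAD001-treated aged kidneys. In liver it ran from 10001 to 26339 in young and from 11951 to 24614 in aged rats, against 21113 to 23314 in treated rats.

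The promoters of Echs1, Eci2, Hadhb and Slc27a2 are shown because these genes were called in both kidney comparisons below and their windows hold AGGTCA, the half-site of nuclear receptors such as PPARα. Each window runs from 250 bases before to 50 bases after the annotated start, taken from RefSeq on the GRCr8 build, 5′ to 3′ on the strand of the gene. Capitals mark AGGTCA on either strand (TGACCT when read on the other strand). Windows were matched to the genes by symbol. The Echs1 row measured here, 1 of 2 loci of that symbol, lies at 142777730 to 142786558 of chromosome 1 on the plus strand. The Echs1 window lies on the minus strand, and whether it belongs to the measured row was not tested.
Echs1 (chr1:204333457-204333756, minus strand): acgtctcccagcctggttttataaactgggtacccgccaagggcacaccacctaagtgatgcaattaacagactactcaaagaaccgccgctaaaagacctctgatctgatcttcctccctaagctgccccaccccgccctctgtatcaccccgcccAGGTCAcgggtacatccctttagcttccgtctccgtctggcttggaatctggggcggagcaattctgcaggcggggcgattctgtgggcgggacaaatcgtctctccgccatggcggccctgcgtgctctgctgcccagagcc
Eci2 (chr17:30075516-30075815, plus strand): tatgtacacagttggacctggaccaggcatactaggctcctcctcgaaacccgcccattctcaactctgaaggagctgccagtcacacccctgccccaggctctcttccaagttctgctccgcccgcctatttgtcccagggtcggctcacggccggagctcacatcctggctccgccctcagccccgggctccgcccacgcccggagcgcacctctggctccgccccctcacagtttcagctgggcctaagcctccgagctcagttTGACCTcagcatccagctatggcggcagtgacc
Hadhb (chr6:31907451-31907750, minus strand): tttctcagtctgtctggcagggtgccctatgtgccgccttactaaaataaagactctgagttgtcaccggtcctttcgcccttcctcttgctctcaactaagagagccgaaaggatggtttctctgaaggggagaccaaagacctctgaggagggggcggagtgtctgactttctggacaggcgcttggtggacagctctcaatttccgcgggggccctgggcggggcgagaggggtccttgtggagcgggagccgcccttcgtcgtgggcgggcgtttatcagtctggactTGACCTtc
Slc27a2 (chr3:134257851-134258150, plus strand): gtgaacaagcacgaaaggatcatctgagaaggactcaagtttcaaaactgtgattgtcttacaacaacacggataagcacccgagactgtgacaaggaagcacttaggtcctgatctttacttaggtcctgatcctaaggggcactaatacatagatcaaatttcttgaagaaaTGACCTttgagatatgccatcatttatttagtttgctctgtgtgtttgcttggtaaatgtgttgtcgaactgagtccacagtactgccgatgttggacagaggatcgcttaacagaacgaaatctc
Among the 33 genes, 29 had a promoter in the RefSeq table, and 9 of these (31.0%) held AGGTCA against 16.2% of all 33469 promoters. A direct repeat of AGGTCA with 1 base between the copies, searched on both strands and overlapping the single matches, occurred in 0 of the 29 and in 0.0538% of all promoters. A match describes letters in the window and nothing about binding.

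Levels of the genes differed widely between the tissues of young rats. Among the 7 peroxisomal genes, 6 had their lowest 6M_Vehicle median in muscle, both as deposited and when all tissues were scaled together. Slc27a2, which transports and activates very long fatty acids, had deposited medians of 21.9 in liver, 13.3 in kidney and 0.00242 in muscle. Pex11a, a factor of peroxisome division, stood at 1.79 in kidney, 0.320 in liver and 0.0300 in muscle. Phyh, the hydroxylase that starts α-oxidation of branched chains, was the exception among the peroxisomal genes, with 34.8 in liver, 15.4 in muscle and 12.3 in kidney. Ranges of Slc27a2 and Pex11a did not overlap between muscle and the other tissues.

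Muscle led for a different set of genes. Cpt1b, the muscle form of the enzyme that makes the carnitine ester at the outer mitochondrial membrane, had a deposited median of 5.64 in muscle, 0.220 in kidney and 0.0318 in liver. Fabp3, the heart and muscle fatty acid binding protein, had 19.9 in muscle, 13.0 in kidney and 0.148 in liver. Crat, carnitine acetyltransferase, had 10.4 in muscle, 4.12 in kidney and 0.366 in liver. Hadhb, the thiolase subunit of the trifunctional protein, had 21.3 in muscle, 12.4 in kidney and 5.60 in liver. Acsl1, a long-chain acyl-CoA synthetase, was highest in liver at 39.5, against 5.78 in muscle and 3.83 in kidney. The thioesterase Acot1 was highest in kidney at 2.02, against 0.0519 in muscle and 0.0182 in liver. These orders were the same when all tissues were scaled together. Only 7 of the 18 mitochondrial genes kept one order of tissues under both scalings, so no order is given for the others.

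**Figure D1:**
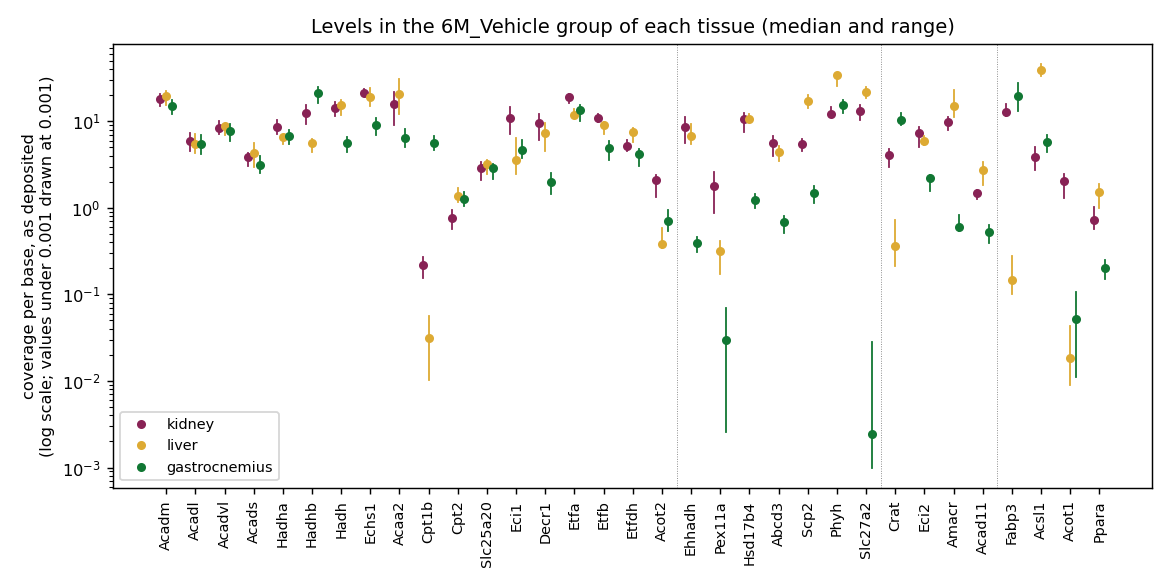
Deposited coverage per base (log axis) of the 33 genes in the 6M_Vehicle group of kidney, liver and gastrocnemius, with points at the median and lines from the lowest to the highest of 10 libraries. Muscle is lowest for 6 of the 7 peroxisomal genes and highest for Cpt1b, Crat and Fabp3.

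In the kidney, fatty acid oxidation genes were lower in aged than in young rats. Of the 33 genes, 27 fell and 0 rose at an adjusted p under 0.05 (limma, Benjamini-Hochberg over all loci tested in kidney), against 22.2% of all 10447 loci tested that fell, 20.8% that rose and 43% that changed in either direction. The median log2 change of the 33 genes was -0.39, against -0.00 over all loci tested. All of the 33 passed the filter on low values in kidney. By location, 16 of 18 mitochondrial, 5 of 7 peroxisomal, 4 of 4 dual or uncertain (Crat, Eci2, Amacr and Acad11) and 2 of 4 uptake and regulatory genes fell. Falls of at least 1.5-fold were found for 7 genes, and the share of all loci with such a fall is not given here. Of all loci called, 48.4% were higher, against 64.6% with upper-quartile scaling and 62.8% with values as deposited, under which 27 and 26 of the 33 genes fell and 0 rose.

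Hadha, the trifunctional protein subunit that hydrates and oxidises long chains, had a median level of 8.82 in 6M_Vehicle (7.60 to 10.1) and 5.75 in 24M_Vehicle (5.24 to 6.16). All 10 aged libraries lay below every young one, and the log2 change was -0.59 ± 0.04 (SE, adjusted p = 2.53e-10, limma). Acadm, the medium-chain acyl-CoA dehydrogenase, went from 18.2 (15.5 to 20.3) to 11.4 (8.14 to 14.7), again with no overlap, and fell by 0.64 ± 0.08 on the log2 scale (SE, adjusted p = 1.21e-06, limma). Acads, which acts on short chains, went from 3.98 (3.11 to 4.39) to 2.68 (2.16 to 3.29), with overlap at the edges of the groups. Its log2 change was -0.53 ± 0.07 (SE, adjusted p = 1.30e-06, limma). Cpt2, which returns the carnitine ester to coenzyme A inside the mitochondrion, had medians of 0.773 (0.586 to 0.951) and 0.590 (0.484 to 0.826), a log2 change of -0.30 (adjusted p = 0.00722, limma). Acot2, a mitochondrial thioesterase, had a log2 change of -0.42 (adjusted p = 0.000468, limma).

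The remaining mitochondrial genes that fell were Acadl, Acadvl, Hadhb, Hadh, Echs1, Slc25a20, Eci1, Decr1, Etfa, Etfb and Etfdh. They span the carnitine carrier, dehydrogenases for long chains, later steps of the cycle, the auxiliary isomerase and reductase for unsaturated chains, and electron transfer. Their log2 changes lay between -0.63 (Eci1) and -0.25 (Echs1). Hadh had a median of 14.2 in young (12.4 to 16.1) and 9.98 in aged kidneys (6.71 to 12.3), without overlap, while Eci1 (11.1 and 7.11), Decr1 (9.70 and 6.34) and the carnitine carrier Slc25a20 (2.92 and 2.15) overlapped at the edges. Cpt1b (median 0.223 in young and 0.202 in aged kidneys) and Acaa2 (16.0 and 12.9), the thiolase of the mitochondrial cycle, did not pass the test.

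The 2 largest log2 falls among the 33 genes were those of the peroxisomal genes Pex11a and Ehhadh. Ehhadh, the peroxisomal bifunctional enzyme, had a median of 8.87 in 6M_Vehicle (6.11 to 10.97) and 4.89 in 24M_Vehicle (2.87 to 5.93), with no overlap, and a log2 change of -0.90 ± 0.11 (SE, adjusted p = 9.05e-07, limma). Pex11a went from 1.83 (0.937 to 2.54) to 0.839 (0.625 to 1.14), a log2 change of -0.95 ± 0.12 (SE, adjusted p = 8.80e-07, limma), with 1 young library inside the aged range. Slc27a2 went from 13.5 (11.1 to 15.5) to 8.96 (6.04 to 11.8) and fell by 0.61 ± 0.10 on the log2 scale (SE, adjusted p = 1.34e-05, limma). The young and aged ranges of Slc27a2 overlapped. The peroxisomal transporter Abcd3 and the thiolase and carrier protein Scp2 also fell, with medians of 5.62 and 4.40 and of 5.47 and 4.60. Hsd17b4, the D-bifunctional protein (10.5 and 9.58), and Phyh (12.5 and 12.1) did not pass the test.

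Crat had medians of 4.16 (3.08 to 4.56) and 2.81 (2.35 to 3.51) and fell by 0.51 ± 0.07 on the log2 scale (SE, adjusted p = 4.01e-06, limma). Eci2, an enoyl-CoA isomerase, had 7.47 (5.26 to 8.46) and 5.02 (3.74 to 6.38) and fell by 0.50 ± 0.09 (SE, adjusted p = 6.07e-05, limma). Both pairs of groups overlapped. Amacr, the racemase that prepares branched chains for β-oxidation, was the most spread in aged kidneys, from 3.37 to 11.7 around a median of 6.92, against 8.56 to 11.5 around 9.84 in young ones. Among the uptake and regulatory genes, Acsl1 (3.80 and 2.83) and Acot1 (2.06 and 1.33) fell. Fabp3 (13.2 and 14.7) did not pass the test. Reads of Acot1 and Acot2, near-identical copies, could be shared between their loci, so each value is uncertain. Ppara itself, the gene of the receptor PPARα, had medians of 0.719 and 0.732 (log2 change 0.05, adjusted p = 0.782, limma).

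**Figure D2:**
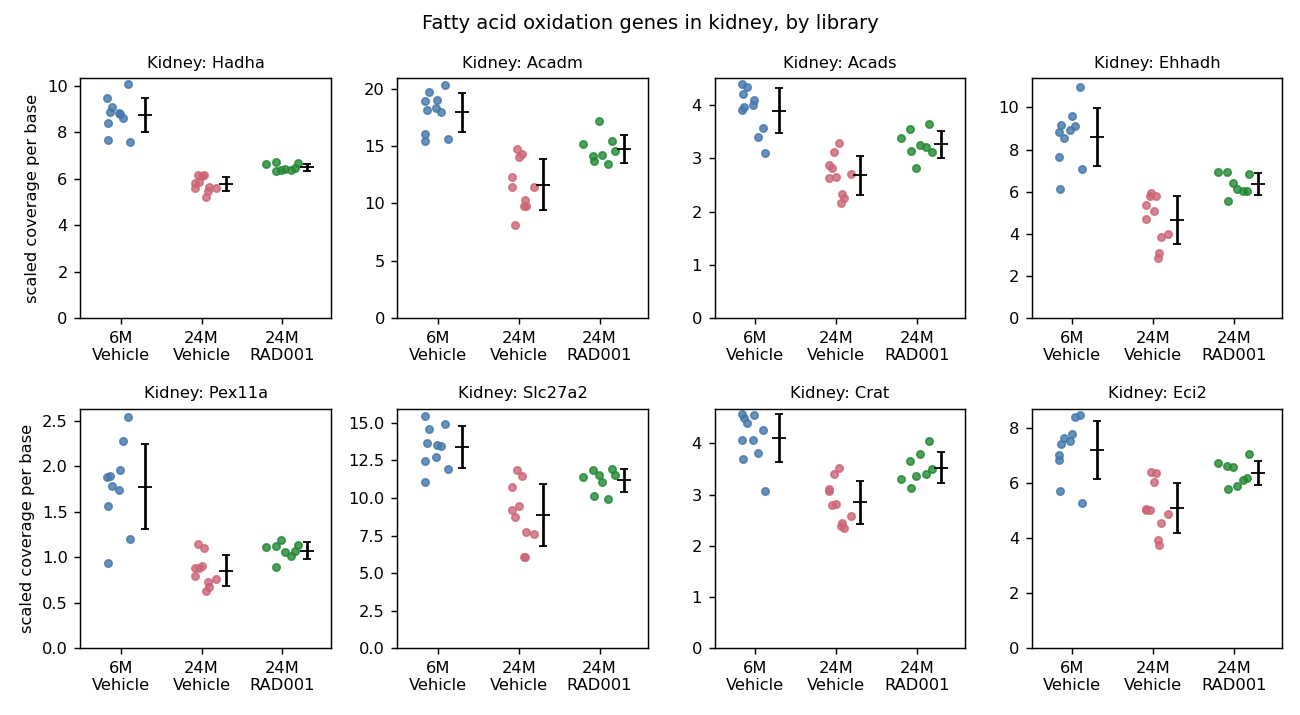
Scaled coverage per base of 8 genes in each kidney library, with bars at the mean ± SD of 10, 10 and 8 libraries. For Hadha, Acadm and Ehhadh the 24M_Vehicle points lie wholly below the 6M_Vehicle points, and for Hadha the 24M_RAD001 points lie between both groups without overlap.

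The joined locus of Acaa1a and Acaa1b, peroxisomal thiolases, had a kidney median of 6.83 in young and 4.39 in aged rats. The joined locus of Cd36, the fatty acid translocase, and RGD1565355 went the other way, from 0.569 (0.338 to 0.626) to 0.871 (0.699 to 1.01).

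RAD001-treated aged kidneys had higher levels of many of the same genes than aged kidneys given vehicle. Of the 33 genes, 14 rose and 0 fell (limma, adjusted p under 0.05), against 18.3% of all loci tested that rose, 19.1% that fell and 37.4% that changed in either direction. None of the 14 reached 1.5-fold, and the median log2 change of the 33 was 0.21, against 0.00 over all loci tested. All 14 were also among the 27 that fell with age, against 10.9% of all loci tested that were called in both directions in this way. Both comparisons use the same 24M_Vehicle libraries, so their changes are not independent. Of all loci called with RAD001, 49% were higher, against 33.5% with upper-quartile scaling and 39.2% as deposited, under which 12 and 10 genes rose and 0 fell.

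The 9 mitochondrial genes that rose were Acadm, Acads, Hadha, Hadhb, Hadh, Echs1, Cpt2, Etfa and Etfdh. Hadha had a median of 6.44 under RAD001 (6.34 to 6.72), above every 24M_Vehicle library and below every 6M_Vehicle library, with a log2 change of 0.17 ± 0.05 against aged vehicle (SE, adjusted p = 0.00435, limma). Acadm stood at 14.4 (13.5 to 17.2), with 3 of 8 treated libraries above all aged ones, a change of 0.36 ± 0.09 (SE, adjusted p = 0.00242, limma). Hadhb stood at 12.2 (11.5 to 13.3), above the aged range of 8.79 to 11.1 and within the young range of 9.98 to 15.1. It rose by 0.30 ± 0.06 on the log2 scale (SE, adjusted p = 0.000336, limma), and was named after its values were seen. Cpt2 stood at 0.741 (0.623 to 1.02) and rose by 0.26 (adjusted p = 0.0313, limma). That call was lost when any of 6 single libraries was left out, 24M_RAD001 1 and 7 and 24M_Vehicle 4, 7, 8 and 10 (log2 change 0.20 to 0.24, adjusted p 0.0537 to 0.0879).

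The subunits of electron transfer flavoprotein had different values under RAD001. Etfa had medians of 19.4 in young, 15.1 in aged and 19.0 in treated kidneys (17.9 to 21.2), with a log2 change of 0.35 ± 0.06 against aged vehicle (SE, adjusted p = 6.03e-05, limma). Etfb had 11.1, 9.37 and 8.74 (7.92 to 9.98), with a change of -0.08 ± 0.06 (SE, adjusted p = 0.309, limma), and its treated libraries lay below every young one. The difference between the 2 subunits was not tested. Echs1, the short-chain enoyl-CoA hydratase, stood at 22.9 (21.9 to 24.6) and Hadh at 12.9 (11.8 to 13.4), against aged medians of 19.3 and 9.98, and the treated and aged groups overlapped for both.

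The other 13 genes that fell with age did not pass the test with RAD001. Their log2 changes were nearest 0 for Abcd3 (-0.01), Acsl1 (0.02), Acadvl (0.04), Slc25a20 (0.07), Acadl (0.07), Etfb (-0.08) and Eci1 (0.09). They were larger for Acad11 (0.13), Scp2 (0.14), Acot2 (0.19), Acot1 (0.21), Decr1 (0.25) and Amacr (0.34). Treated kidneys were lower than young ones for 9 of the 13 (limma, adjusted p under 0.05), all but Acot2, Scp2, Amacr and Acot1.

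Of the peroxisomal genes, Ehhadh stood at 6.28 (5.57 to 6.95) and rose by 0.48 ± 0.12 on the log2 scale (SE, adjusted p = 0.00276, limma). Slc27a2 stood at 11.5 (9.91 to 11.9) and rose by 0.36 ± 0.10 (SE, adjusted p = 0.00768, limma). Both overlapped the aged vehicle group. Pex11a stood at 1.10 (0.891 to 1.19), with an adjusted p of 0.0498 (limma) that passed the threshold narrowly and did not pass in 21 of 28 fits that each left out 1 library (adjusted p 0.0511 to 0.0938). Crat (median 3.45) and Eci2 (6.38) rose by 0.31 and 0.33 on the log2 scale. None of the 4 uptake and regulatory genes passed the test.

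Against young rats, the RAD001-treated aged kidneys still had 16 of 33 genes lower and 0 higher, against 14.5% of all loci tested that were lower, 12% that were higher and 26.5% that differed. Hadha (log2 change -0.42, adjusted p = 6.34e-08, limma), Ehhadh (-0.42, 0.0116) and Pex11a (-0.64, 0.000505) were among them. Hadhb (-0.02, 0.858), Etfa (0.02, 0.858) and Cpt2 (-0.04, 0.794) did not pass the test.

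The treated kidneys also differed from both vehicle groups in 7SL and in Rn45s, the ribosomal RNA precursor. The deposited 7SL value ran from 27815 to 40949 in treated kidneys, against 22484 to 27719 in young and 22242 to 30427 in aged ones, and the aged and treated ranges overlapped. Rn45s ran from 182 to 278 in treated kidneys, against 362 to 516 and 353 to 544, with no overlap. With the log2 level of 7SL as a covariate, only 1 of the 14 genes, Hadhb, remained called (log2 change 0.34, adjusted p = 0.0393, limma). Some of the other changes stayed close in size, with Cpt2 at 0.26 without and 0.27 with the covariate, Hadha at 0.17 and 0.18, Ehhadh at 0.48 and 0.43, and Pex11a at 0.32 and 0.28. Others were smaller with it, such as Acads at 0.28 and 0.01 and Crat at 0.31 and 0.10. Over all loci tested, the share called with RAD001 went from 37.4% to 4.39% with this covariate. The number of the 33 genes that fell with age was 27 with it and 27 without it. With Rn45s as the covariate, chosen after the data were seen, 10 of the 33 genes rose with RAD001, and 1 in place of 16 was lower in treated than in young kidneys. The shares of all loci in the Rn45s fit are not given here. Both 7SL and Rn45s differed with treatment in kidney, so these fits cannot separate either covariate from RAD001.

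Markers of kidney cell types moved with these genes. Of 20 proximal tubule markers, 17 fell with age and 13 rose with RAD001, and their summed level had medians of 1098 in young (977 to 1280), 724 in aged (459 to 980) and 885 in treated rats (797 to 1003). Of 11 distal nephron markers tested, 2 fell with age. All 11 macrophage, 7 lymphocyte and 9 fibroblast markers tested rose with age, and 9, 6 and 8 of them fell with RAD001. Medians were under 0.1 for 5 of 14 macrophage, 7 of 11 lymphocyte and 2 of 10 fibroblast markers, and some of these were tested. Such a marker passed the filter if 8 libraries reached 0.1, which the aged group alone could supply. The filter thus favoured low markers that were high in aged kidneys, so these counts do not show that all markers of a list rose. The summed macrophage level ran from 5.41 to 7.77 in young, 8.07 to 21.6 in aged and 7.29 to 13.2 in treated rats. No marker of these 3 lists was at 0 in all libraries, though the defining markers Cd68 and Cd3e had medians under 0.1. Muscle markers also differed in treated kidneys. The summed level of 11 fast fibre markers ran from 0.365 to 11.2 in 24M_RAD001 kidneys, above every vehicle kidney in 6 of 8, against 0.317 to 0.874 in young and 0.343 to 0.571 in aged ones. In gastrocnemius the same sum was at least 3813. In kidney 10 of these 11 markers had medians under 0.1, and the 3 slow fibre markers tested there rose with RAD001. The sum of 10 slow fibre markers, 7 of them with medians under 0.1, was near the young level in treated kidneys. Its medians were 5.65 in young, 4.65 in aged and 5.72 in treated rats. Of the genes named above as highest in muscle, Hadhb and Crat rose with RAD001 in kidney. Cpt1b (log2 change -0.12, adjusted p = 0.325, limma) and Fabp3 (0.06, adjusted p = 0.676, limma) did not pass the test there. The part of cell composition and of muscle RNA in the changes above was not tested.

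The aged kidneys were also the most unequal group. Levels of the 18 mitochondrial genes, standardised over the 28 kidney libraries and averaged within each library, ran from -1.63 to 0.0978 in 24M_Vehicle, from 0.0928 to 1.32 in 6M_Vehicle and from -0.246 to 0.149 in 24M_RAD001. The 4 lowest aged libraries, with -1.63, -1.46, -1.23 and -1.04, had the 4 lowest proximal tubule sums (459 to 575). They also had the 4 highest macrophage sums (16.5 to 21.6) and the 4 highest fibroblast sums (26.9 to 31.0) of the aged group. The highest aged library reached 0.0978 and had a proximal tubule sum of 980, within the young range. The same 4 libraries were lowest for the 7 peroxisomal genes.

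**Figure D3:**
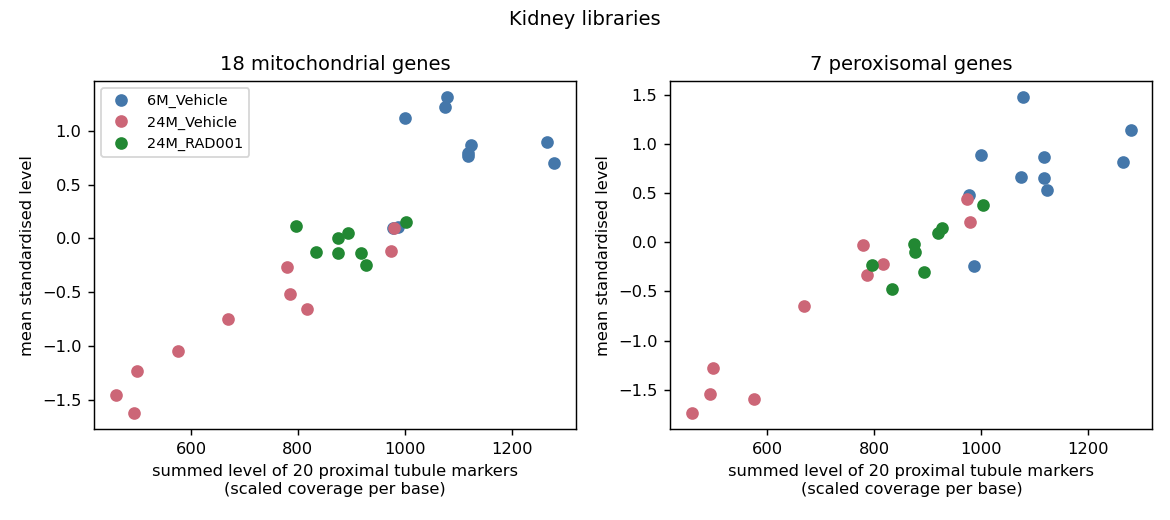
Mean standardised level of the 18 mitochondrial (left) and 7 peroxisomal genes (right) in each kidney library against the summed level of 20 proximal tubule markers. The 24M_Vehicle points extend to the lower left, from 459 to 980 on the x axis, while the 24M_RAD001 points lie between 797 and 1003.

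Other genes of the pathway in kidney went the same way. Of 23 further genes tested from a mitochondrial list, 15 fell and 2 rose with age. Not all proteins of that list are located in mitochondria. Slc22a5, the carnitine importer of the cell membrane, had a mean of 10.4 ± 1.24 (SD, n = 10) in young kidneys and 5.96 ± 1.10 (SD, n = 10) in aged ones, and its log2 change was -0.80 (adjusted p = 1.12e-07, limma). Under RAD001 it reached 8.03 ± 0.672 (SD, n = 8), a change of 0.44 (adjusted p = 0.000571). The medium-chain acyl-CoA synthetases Acsm1 and Acsm3 changed by -0.56 and -1.07 with age. Of 41 further peroxisomal genes, 27 fell and 1 rose with age, with the smallest adjusted p for Lonp2 (-0.61), a peroxisomal protease, and the oxidases Dao (-0.94) and Hao2 (-0.75). With RAD001, 10 of the 23 rose and 2 fell, and 19 of the 41 rose and 2 fell.

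All 7 genes of ketone body metabolism fell with age in kidney, among them Acat1 (-0.35), the mitochondrial acetoacetyl-CoA thiolase, and 3 rose with RAD001. Of 22 known PPARα targets tested, 16 fell and 1 rose with age, among them the fatty acid hydroxylases Cyp4a2 (-1.05) and Cyp4a3 (-0.96), and 9 rose and 1 fell with RAD001. Of 23 genes of lipid supply and regulation, 4 fell and 1 rose with age. Mgll, monoacylglycerol lipase, had 19.9 ± 1.19 (SD, n = 10) in young, 13.8 ± 2.31 (SD, n = 10) in aged and 21.2 ± 1.33 (SD, n = 8) in treated rats. The loci closest in pattern to the mitochondrial mean over the 28 kidney libraries were Nit1 (Pearson r = 0.94), Plekhb2 (0.94), Atp5a1 (0.94), Iah1 (0.93) and Dnajc22 (0.93), among 10232 loci outside the lists. These r values describe libraries that share scaling and group differences.

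The liver showed fewer changes with age than the kidney, at a share near that of all loci tested. Of 31 genes that passed the filter, 4 fell and 1 rose (limma, adjusted p under 0.05), against 8.71% of 8991 loci tested that fell, 7.86% that rose and 16.6% that changed in either direction. The median log2 change was -0.08, against 0.00 over all loci tested. Of all loci called, 47.4% were higher, against 66.6% with values as deposited, under which 3 genes rose and 3 fell. Cpt1b and Acot1 did not pass the filter. Amacr had a median of 15.5 in 6M_Vehicle (11.3 to 23.3) and 7.42 in 24M_Vehicle (6.10 to 11.8), a log2 change of -0.96 ± 0.14 (SE, adjusted p = 1.06e-05, limma). Phyh went from 35.1 (25.2 to 39.8) to 20.6 (18.7 to 28.5), a change of -0.65 ± 0.09 (SE, adjusted p = 3.29e-06, limma). Each overlapped between young and aged rats at the edges of the groups.

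Acadm fell by 0.34 and Hadh, the short-chain hydroxyacyl-CoA dehydrogenase, by 0.31 on the log2 scale in aged liver (adjusted p = 0.00401 and 0.0203, limma). Ehhadh rose, from 6.84 (5.83 to 8.69) to 8.28 (7.30 to 10.7), a log2 change of 0.29 ± 0.08 (SE, adjusted p = 0.0094, limma). Hadha had medians of 6.67 and 5.77 (-0.17, adjusted p = 0.0666). Scp2 (16.9 and 15.4), Pex11a (0.332 and 0.245), Cpt2 (1.38 and 1.18), Acot2 (0.382 and 0.499) and Ppara (1.52 and 1.26) did not pass the test. Without the 7 liver libraries whose deposited 7SL value was under 16000, a choice made after the data were seen, 2 genes remained called, Amacr and Phyh, and Ehhadh had an adjusted p of 0.209 (log2 change 0.19). The joined Cd36 locus had medians of 0.143 in young, 0.309 in aged and 0.371 in treated liver.

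RAD001 was followed by few calls in liver. Of the 31 genes, 1 rose and 2 fell against aged vehicle, against 7.62% of loci tested that rose, 8.13% that fell and 15.7% that changed. None of the genes fell with age and rose with RAD001, as 0.968% of the loci tested did. Crat had medians of 0.357 in young (0.207 to 0.784), 0.383 in aged (0.284 to 0.554) and 0.649 in treated liver (0.285 to 1.31), with libraries 1, 2 and 3 of the treated group at 1.05, 1.31 and 0.834. Its log2 change was 0.62 ± 0.19 (SE, adjusted p = 0.0248, limma). Of all loci called with RAD001 in liver, 48.4% were higher, against 63.2% with upper-quartile scaling and 28.9% as deposited. The Crat call was lost when library 1, 2 or 3 of 24M_RAD001 was left out (adjusted p 0.0529 to 0.0634).

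Acad11, an acyl-CoA dehydrogenase of long-chain substrates, had medians of 3.02 in aged (2.37 to 3.85) and 2.25 in treated liver (2.03 to 2.69), a log2 change of -0.40 ± 0.09 (SE, adjusted p = 0.00565, limma). The groups overlapped. Phyh went on from 20.6 to 17.4 (15.4 to 23.0), a change of -0.27 with an adjusted p of 0.0485 (limma), and this call was lost in 20 of 28 fits that each left out 1 library. Against young rats, the treated livers had 3 genes higher (Acot2, Ehhadh and Crat) and 9 lower, against 17% of loci tested that were higher, 18% that were lower and 34.9% that differed. Of all loci that differed there, 48.5% were higher, against 60.3% with upper-quartile scaling, under which 3 genes were higher and 5 lower. Phyh and Amacr did not overlap between those groups.

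Among 25 PPARα targets tested in liver, 6 rose and 1 fell with RAD001, and 5 rose and 2 fell with age. Txnip, a regulator of thioredoxin and glucose uptake, had a mean of 1.56 ± 0.170 (SD, n = 10) in aged and 2.22 ± 0.370 (SD, n = 8) in treated liver, and rose by 0.47 on the log2 scale (adjusted p = 0.000445, limma). Pdk4, which restrains pyruvate oxidation, had 0.846 ± 0.236 (SD, n = 10) and 2.09 ± 0.886 (SD, n = 8) and rose by 1.14 (adjusted p = 0.000785, limma). Of 23 further genes of the mitochondrial list, 3 rose and 2 fell with age and 0 rose and 5 fell with RAD001. Of 44 further peroxisomal genes, 2 rose and 9 fell with age and 3 rose and 3 fell with RAD001, and Hao2 had the largest change with age in these lists, -2.67 (adjusted p = 4.41e-10, limma). Among 6 ketone body genes, 1 rose and 2 fell with age and 1 rose and 1 fell with RAD001. Among 21 supply and regulatory genes, 4 rose and 1 fell with age and 4 rose with RAD001.

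Hepatocyte markers in liver fell in 4 of 12 cases with age and in 5 of 12 with RAD001, while 6 of 12 macrophage markers tested rose with age. The summed hepatocyte level had medians of 6314 in young (5922 to 6714), 7358 in aged (5140 to 8538) and 5366 in treated rats (4536 to 6884). Their part in the changes above was not tested. The loci closest in pattern to the 17 mitochondrial genes tested in liver were Gk (Pearson r = 0.78), Asgr1 (0.74), Sdf4 (0.73), Dcaf11 (0.72) and Dio1 (0.71) over 28 libraries.

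The gastrocnemius showed changes in both directions with age, at a share near that of all loci tested. Of 30 genes that passed the filter, 5 rose and 5 fell (limma, adjusted p under 0.05), against 17% of 8836 loci tested that rose, 18.4% that fell and 35.4% that changed in either direction. The median log2 change was -0.04, against 0.00 over all loci tested. With values as deposited, 9 genes rose and 0 fell, and the median of all loci tested was then 0.12, so the 5 falls hold only relative to that shift. Of all loci called, 48% were higher, against 85.9% as deposited. Pex11a, Slc27a2 and Acot1 did not pass the filter, with group medians of 0.0324 to 0.0488, 0 to 0.00273 and 0.0529 to 0.0701.

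Decr1, the mitochondrial reductase needed for polyunsaturated chains, had a median of 2.03 in 6M_Vehicle (1.66 to 2.42) and 3.38 in 24M_Vehicle (2.62 to 4.05). All aged libraries lay above every young one, and the log2 change was 0.69 ± 0.08 (SE, adjusted p = 1.77e-08, limma). Acadl, a long-chain acyl-CoA dehydrogenase, went from 5.38 (4.87 to 7.29) to 7.06 (5.44 to 8.10), a change of 0.31 ± 0.08 (SE, adjusted p = 0.00402, limma). Acaa2 went from 6.73 (4.79 to 7.88) to 8.37 (6.46 to 9.57), a change of 0.33 ± 0.09 (SE, adjusted p = 0.00431, limma). Eci1 and Eci2, isomerases of unsaturated chains, also rose, by 0.19 and 0.22. The groups of these 4 genes overlapped.

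Acadm went from 15.4 (13.9 to 17.8) to 13.0 (9.14 to 16.1), a log2 change of -0.29 ± 0.09 (SE, adjusted p = 0.00823, limma). Phyh went from 15.9 (14.4 to 18.1) to 13.6 (11.2 to 16.3), a change of -0.26 ± 0.06 (SE, adjusted p = 0.00233, limma), and Acsl1 went from 6.11 (5.04 to 6.74) to 5.26 (4.24 to 5.77), a change of -0.21 (adjusted p = 0.0245). Etfa and Etfb, the subunits of electron transfer flavoprotein, were the other 2 that fell. The calls of Acsl1, Etfa and Etfb were sensitive to leaving out 1 library. The Acsl1 call ended in 2 of 28 fits, without 24M_Vehicle 6 or 7, the Etfa call in 17 and the Etfb call in 7. For Etfa these included fits without 24M_RAD001 libraries 1, 2 or 6, which are not in the comparison. Cpt1b (5.85 and 6.39), Hadha (6.98 and 7.63), Cpt2 (1.39 and 1.35), Acot2 (0.758 and 0.908), Ehhadh (0.389 and 0.411), Hsd17b4 (1.24 and 1.34), Scp2 (1.52 and 1.49) and Ppara (0.190 and 0.185) did not pass the test.

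RAD001 gave 0 calls among the 30 genes in muscle (limma), against 1.72% of loci tested that rose, 1.65% that fell and 3.37% that changed. In muscle 0 genes fell with age and rose with RAD001, against 0.589% of loci tested. Of all loci called with RAD001, 51% were higher, against 9.09% of the 11 called as deposited, under which 0 genes were called. At an unadjusted p under 0.05 there were 3 of 30, Cpt2, Abcd3 and Eci2, named after their values were seen. The share of all loci at that unadjusted threshold is not given here. Cpt2 had medians of 1.35 in aged (0.949 to 1.58) and 1.49 in treated muscle (1.36 to 2.39), a log2 change of 0.31 ± 0.10 (SE, adjusted p = 0.0748). Decr1 had a median of 3.12 under RAD001 (2.86 to 4.39), overlapping the aged vehicle group and above every young library. Treated aged muscle against young had 5 genes higher and 4 lower, against 17.9% of loci tested that were higher, 18.6% that were lower and 36.5% that differed. As deposited, 6 genes were higher and 0 lower, and 73.4% of all loci called were higher, against 49.1%, so the 4 lower genes depend on the scaling.

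**Figure D4:**
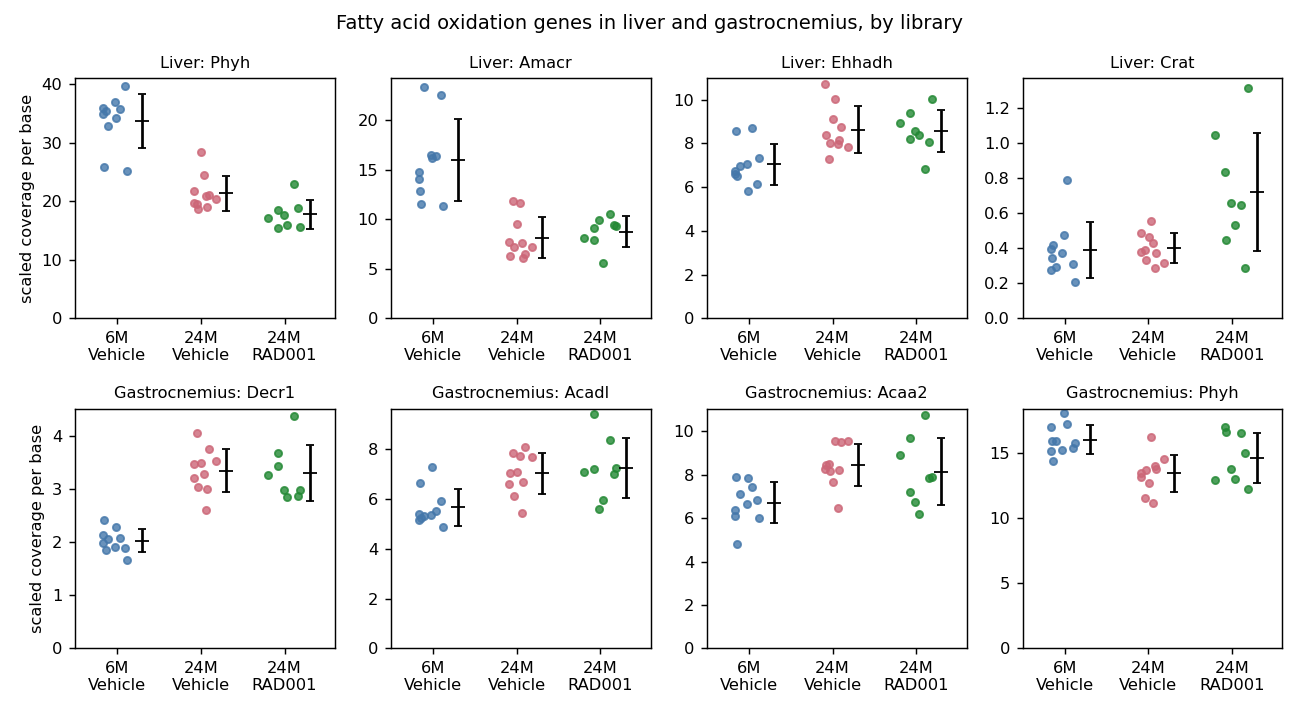
Scaled coverage per base of 4 genes in each liver library (top) and 4 genes in each gastrocnemius library (bottom), with bars at the mean ± SD of 10, 10 and 8 libraries. Decr1 is higher in every 24M_Vehicle than in every 6M_Vehicle muscle library, and 24M_RAD001 liver libraries are spread most for Crat, from 0.285 to 1.31.

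Other genes of the pathway in muscle were divided with age. Of 23 further genes of the mitochondrial list, 5 rose and 7 fell. Among them, the long-chain synthetases Acsl4 and Acsl6 changed by 1.05 and -0.82 and the thioesterase Acot9 by 0.59 on the log2 scale. Of 35 further peroxisomal genes, 7 rose and 5 fell, with the smallest adjusted p for Gnpat (-0.44), an enzyme of ether lipid synthesis. Of 15 PPARα targets, 7 rose and 2 fell, among them the lipid droplet genes Cidea (1.31) and Plin2 (0.49). Of 5 ketone body genes 3 fell, Oxct1 by 0.49, Acat1 by 0.19 and Slc16a1 by 0.21, and of 24 supply and regulatory genes 4 rose and 3 fell. RAD001 gave 1 fall among the 23, Hsd17b10, 1 rise among the 24, Pnpla2, and 1 rise among the 15, Txnip.

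Of 11 fast fibre markers in muscle, 6 fell and 0 rose with age, and of 10 slow fibre markers 1 rose and 2 fell. The summed slow fibre level had medians of 782 in young (684 to 1082), 699 in aged (588 to 968) and 816 in treated rats (681 to 1064). Of 7 adipocyte markers tested in muscle, 0 rose and 0 fell with age. Of 11 macrophage markers tested, 8 rose. Their part in the changes of the 33 genes was not tested. The loci closest in pattern to the mitochondrial mean in muscle were Hsdl2 (Pearson r = 0.82), Nnt (0.77), Idh2 (0.73), Adck3 (0.70) and Ptgr2 (0.68).

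The age changes differed between kidney and the other tissues in a direct test of the difference. Between kidney and liver, 18 of 31 genes had a different age change, 17 of them more negative in kidney and 1, Phyh, more negative in liver, against 24.2% of 8576 loci tested. Ehhadh had the widest gap, with a kidney change lower than the liver change by 1.18 on the log2 scale. Between kidney and muscle, 18 of 30 genes differed, all more negative in kidney, against 29.9% of 8342 loci tested. Decr1 was the widest there, at -1.25. Between liver and muscle, 7 of 29 differed, against 25.9% of 7695 loci tested.

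For RAD001, 10 of 31 genes had a higher change in kidney than in liver, against 27.9% of loci tested that differed. Between kidney and muscle 5 of 30 genes differed, Hadhb, Echs1, Etfa, Ehhadh and Eci2, all higher in kidney, against 22.3%. Between liver and muscle 2 of 29 differed, Phyh and Crat, against 8.42%. These shares of all loci count differences in either direction. Against them, the share for kidney against muscle (5 of 30) was below and the share for kidney against liver (10 of 31) was near. All 5 and all 10 genes were higher in kidney, and the share of all loci in that direction alone is not given here.

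**Figure D5:**
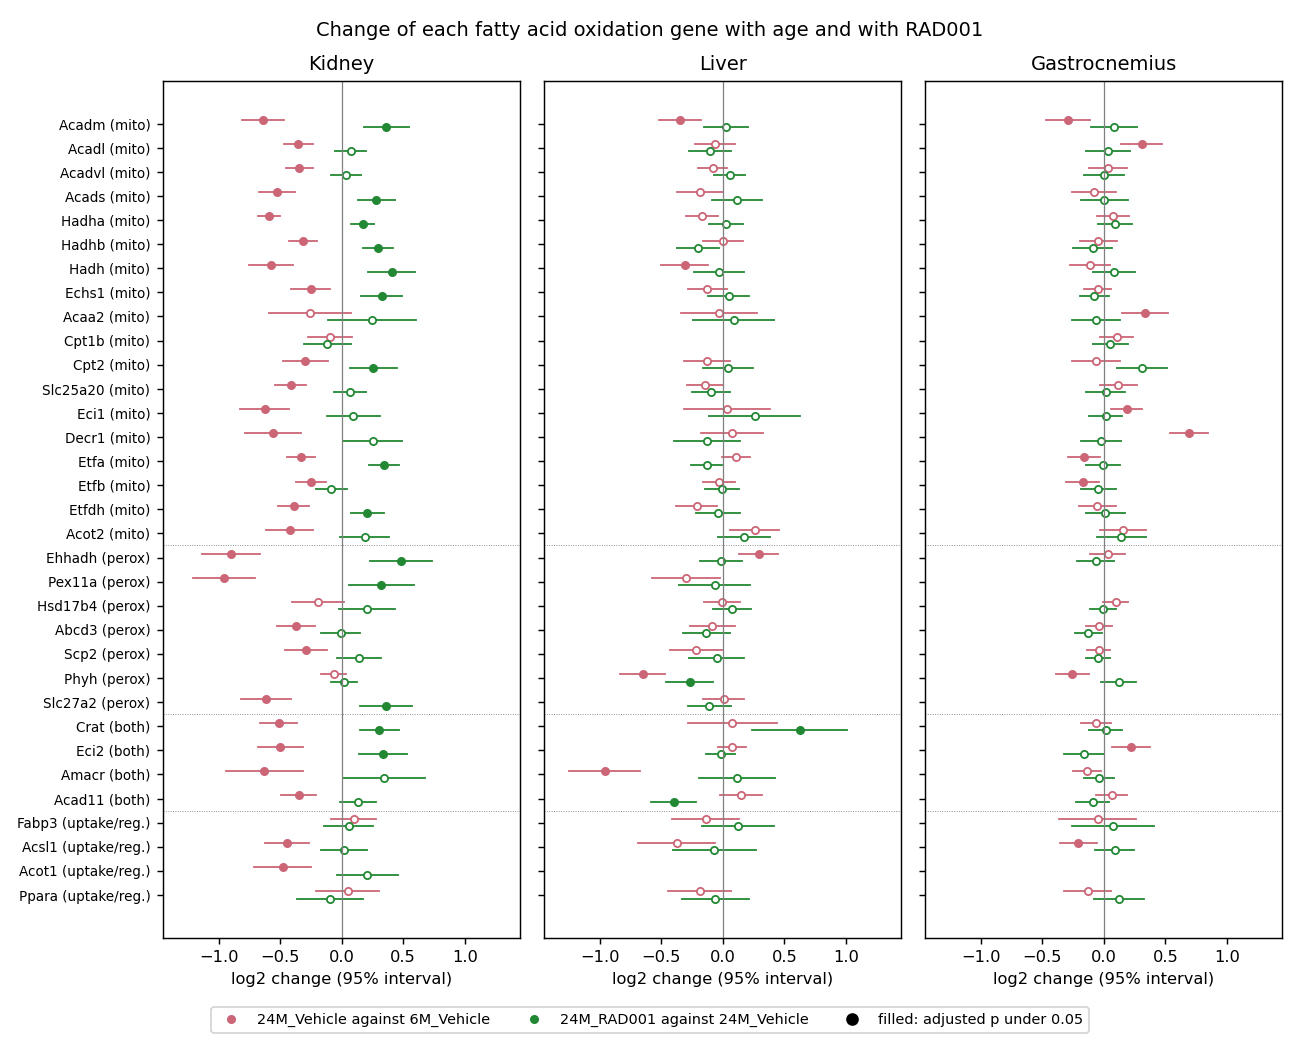
Log2 change of each gene with age (24M_Vehicle against 6M_Vehicle) and with RAD001 (24M_RAD001 against 24M_Vehicle) in each tissue, with 95% intervals and filled points at an adjusted p under 0.05. In kidney 27 age points are filled and negative and 14 RAD001 points are filled and positive, and in muscle no RAD001 point is filled.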

How the data were processed

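Total RNA was sequenced in 84 libraries from 3 tissues and 3 groups. Reads were aligned with STAR 2.4.5a to rn5, per the submitters' processing notes, and no source used here names the tool that summarised loci. Deposited files hold 1 signal value for each of 17502 loci, a coverage per base multiplied by a factor per library. On short microRNA loci, value times length was a whole multiple of 1 step for 100% of the 60 to 156 loci tested per library (relative tolerance 1e-05), which gave relative depth. Strand use in counting is not stated, and Acadvl and Fabp3 each overlap an antisense gene by 84 and 80 bases. Echs1 has 2 loci and the higher was used.

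Loci were kept in a tissue when 8 or more of its 28 libraries reached 0.1. Values were scaled by a mean of log ratios trimmed by 30% on each side and tested as log2(value + 0.1) with limma 3.58.1 (trend) in R 4.3.3, with Benjamini-Hochberg adjustment over all loci tested and 25 residual degrees of freedom. Fold changes are on that scale, which understates changes of low genes. Differences between tissues were tested as interactions. The procedure was tested on simulated data. The genes and lists were chosen with earlier results of these data known. Genes were named by smallest adjusted p among those with a mean of at least 1 (3 mitochondrial, 3 peroxisomal and 2 others per tissue), with 10 fixed genes. Others in lists of called genes were named after their values were seen. Alternatives covered scaling, filter, pseudocount, threshold, library weights, replicate block, 7SL and Rn45s covariates, and leaving out libraries. Some genes of the lists are not reported here. Figures used Python matplotlib.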

Additional observations from a re-analysis of the deposited data

Results flagged for a closer look

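In 17 of 282 groups checked, involving 15 genes, 1 library stood apart from the others of its group by more than Dixon's 95% critical value. Chance alone flags about 5% of groups, and 17 is 6.03% of those checked. In kidney these were Abcd3 in 6M_Vehicle library 9 (4.24, next 5.52), Acaa2 in 24M_RAD001 library 3 (8.82, next 14.9), Acot2 in 24M_Vehicle library 1 (2.36, next 1.70), and Cpt2 and Hsd17b4 in 24M_RAD001 library 7 (1.02, next 0.804, and 8.67, next 10.1).

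In liver they were Crat in 6M_Vehicle library 3 (0.784, next 0.476), Hadh in 6M_Vehicle library 2 (11.7, next 14.96) and, in 24M_Vehicle, Acot2 and Eci1 in library 3 (0.728, next 0.558, and 7.44, next 4.95) and Acsl1 in library 2 (15.1, next 26.2). In treated liver they were Pex11a in library 2 (0.472, next 0.236), Phyh in library 9 (23.0, next 18.8) and Slc27a2 in library 7 (14.6, next 20.8).

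In gastrocnemius they were Abcd3 in 6M_Vehicle library 2 (0.589, next 0.702) and, in 24M_Vehicle, Acadvl and Slc25a20 in library 7 (5.91, next 7.61, and 2.22, next 3.01) and Scp2 in library 3 (1.75, next 1.52).

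The difference between tissues was tested as an interaction (limma). Between kidney and liver the age change differed for 18 of 31 genes, against 24.2% of all loci tested. It differed for 18 of 30 between kidney and gastrocnemius, against 29.9%, and for 7 of 29 between liver and gastrocnemius, against 25.9%. The RAD001 change differed for 10 of 31, 5 of 30 and 2 of 29 genes in the same pairs, against 27.9%, 22.3% and 8.42%. The counts of 7, 10, 5 and 2 were near or below the share of all loci that differed in either direction. All of the 10 and the 5 were higher in kidney, and no share of all loci is given for that direction alone.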

How the results depend on the processing

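Counts of called genes are given as main value and alternative. The share of all loci called can move with the setting too, as given above for the 7SL covariate in kidney. It is not given beside each count here, so a lower count is not particular to these genes. The 27 kidney falls with age numbered 25 to 27 under every alternative run but 1, a minimum of 1.5-fold, which gave 7. Of the 14 kidney rises with RAD001, 1 was left with the 7SL covariate (Cpt2, Hadha, Ehhadh and Pex11a lost their calls at similar sizes, 0.27, 0.18, 0.43 and 0.28), 10 with the Rn45s covariate and 0 at 1.5-fold. Of 16 genes lower in treated than in young kidneys, 9 passed an adjusted p under 0.01, and 1 passed at 1.5-fold and 1 with the Rn45s covariate. With that covariate Acads (0.0611), Crat (0.0519) and Etfdh (0.00013) changed sign but were not called (adjusted p = 0.834, 0.878 and 0.9996, limma). In liver, age gave 5, against 2 at 1.5-fold and 2 without the low 7SL libraries. RAD001 in liver gave 3, against 5 as deposited and 1 with each of 7SL, Rn45s, an adjusted p under 0.01, 1.5-fold and no low 7SL libraries. Treated against young liver gave 12, against 7 at an adjusted p under 0.01, 3 at 1.5-fold, 7 with a filter of at least 1 and 5 without the low 7SL libraries. In gastrocnemius, age gave 10, against 3 with 7SL, 2 with Rn45s, 5 at an adjusted p under 0.01 and 1 at 1.5-fold. RAD001 gave 0, and 1 with a filter of at least 1. Treated against young gave 9, against 2 with 7SL, 2 at an adjusted p under 0.01 and 1 at 1.5-fold. Kidney against liver, 10 RAD001 differences became 6 at an adjusted p under 0.01, with upper-quartile scaling and with a filter of at least 1, and 18 age differences became 10 with that filter. Liver against gastrocnemius, 2 RAD001 differences became 0 at an adjusted p under 0.01 and 1 as deposited, with only these tissues or with a filter of at least 1. Leaving out 1 library gave 27 to 27, 12 to 18 and 13 to 18 in kidney (age, RAD001, treated against young), 5 to 7, 1 to 4 and 8 to 16 in liver, and 7 to 11, 0 to 0 and 7 to 12 in gastrocnemius. Except for fewer genes or libraries tested, the cause was not tested. The Rn45s covariate and the omission of low 7SL libraries were chosen after the data were seen. In kidney, fits with 7SL or Rn45s cannot separate the covariate from RAD001, as both differed with treatment.

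A replicate block gave, in the same order, kidney counts of 27, 12 and 14, liver counts of 5, 2 and 8, and muscle counts of 10, 0 and 12. In none of the 9 pairs of groups within a tissue did every same-numbered pair of libraries correlate over 0.1, so the numbers were not taken as pairs. The median correlation ran from -0.06 (young and aged kidney) to 0.12 (young and aged liver, 6 of 10 over 0.1, and aged and treated muscle, 4 of 8 over 0.1). Across tissues, 16 of 28 kidney libraries correlated best with the liver library of their own number. It was 11 of 28 for kidney and gastrocnemius and 10 of 28 for liver and gastrocnemius, a hint from the data alone. With libraries of the same group and number as a block across tissues, age differences numbered 20, 20 and 7, against 18, 18 and 7. RAD001 differences numbered 12, 7 and 2, against 10, 5 and 2. Pairs are in the order kidney and liver, kidney and gastrocnemius, liver and gastrocnemius. Depth differed by 1.71-fold at most, and genes under the filter could not be tested.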

Other observations

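Libraries of the same group and number in different tissues were compared for each gene as deviations from the group mean, without knowing whether they came from the same rat. Of 90 relations computed, 69 were positive, with a median Pearson r of 0.133. Hsd17b4 between kidney and liver was the only one with an adjusted p under 0.05, with r = 0.657 over 28 pairs (permutation p = 0.00034, adjusted p = 0.0306). Its Spearman coefficient was 0.433 (permutation p = 0.0268, adjusted p = 0.247), and r was 0.465 without the 2 kidney libraries farthest from the median. Within the young, aged and treated groups r was 0.706, 0.68 and 0.74. For Acaa2, r was 0.627 between liver and gastrocnemius, 0.546 between kidney and liver and 0.535 between kidney and gastrocnemius (permutation adjusted p = 0.0504, 0.079 and 0.079). The Spearman coefficient for Acaa2 in the same pairs was 0.6, 0.427 and 0.544 (permutation adjusted p = 0.153, 0.247 and 0.163). Within the young, aged and treated groups, r for Acaa2 between kidney and liver was 0.828, -0.013 and 0.827, so that relation did not hold in the aged group. It was 0.767, 0.475 and 0.583 between liver and gastrocnemius and 0.729, 0.449 and 0.46 between kidney and gastrocnemius. Young library 7 was lowest for Acaa2 in its group in each tissue, at 9.14 in kidney, 12.2 in liver and 4.79 in gastrocnemius.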
